A study of Mus musculus with 10 samples.

Results

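Regions of open chromatin that were called as ATAC-seq peaks only on day 3 of a differentiation of mouse embryonic stem cells toward neuromesodermal progenitors are described here. ATAC-seq marks open DNA by the places where a transposase inserts adapters. The regions were chosen by the authors' peak calls: all peak lists were merged, and a region was kept if it overlapped a peak of both day 3 libraries and no peak of the other 8. This gave 2307 of 246799 merged regions. The same rule gave 6144 regions for day 2, 646 for day 6, 1483 for day 7 and 2529 for day 7 with Gdf11.

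The cells were ES-Bruce4, a single C57BL/6 embryonic stem cell line kept on mouse embryo fibroblasts and depleted of these feeders before plating. All groups were wild type and received bFgf at 10 ng/ml from the start, and the Wnt pathway activator CHIR99021 at 5 µM was added from day 2. Cells were taken on day 2 (labelled as epiblast stem cells), day 3, day 6 and day 7 (labelled as neuromesodermal progenitors), and on day 7 after 24 h of human Gdf11 at 50 ng/ml. The 5 groups had 2 libraries each, made from 50000 cells per library, and the labels do not say whether the 2 came from separate cultures. P-values therefore measure the spread between these libraries, which may be technical.

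Neuromesodermal progenitors are cells of the caudal embryo that give rise to both spinal cord and paraxial mesoderm. Wnt and Fgf signals from the primitive streak and tail bud keep them in place: Wnt ligands stabilise beta-catenin, which acts with DNA-binding proteins of the Tcf/Lef family, and Fgf ligands act through receptor kinases on Ets factors and on feedback inhibitors of the Sprouty family. Genes such as T, Cdx2, Nkx1-2 and Fgf8 mark the progenitors, while Msgn1, Tbx6 and Mesp1 mark cells that enter mesoderm. Enhancers are short open stretches that often lie far from the gene they act on, so the nearest gene named below is a label of position and not a target.

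Of the 2307 regions, 33 (1.43%) overlapped a promoter window, defined as the 250 bases before to 50 bases after a RefSeq gene start. Over all merged regions this share was 6.0%, and over regions called in both day 3 libraries 17.2%. In the other single-group sets it was 2.38% for day 2, 1.39% for day 6, 1.62% for day 7 and 1.11% for day 7 with Gdf11. The 33 regions touched 37 windows, 20 of them of genes with only a predicted-gene or Riken name. A Tcf/Lef word was present in 10 of the 37 windows (27.0%) and in 8.65% of all 32851 windows. The Tcf/Lef words were CTTTGAT and CTTTGAA on both strands, which read ATCAAAG and TTCAAAG on the opposite strand. Words of other factors were searched too and are given below. In 7 of the 10 windows a word lay inside the day 3 region itself, in that of Gm39769 after the gene start. The stretches below show the bases before the start that lay inside a day 3 region, 5′ to 3′ on the strand of the gene, for the windows in which such a word fell there, with the Tcf/Lef word in capitals. Wnt3a is given beside them as a Wnt ligand gene whose covered stretch holds no such word.
Msgn1: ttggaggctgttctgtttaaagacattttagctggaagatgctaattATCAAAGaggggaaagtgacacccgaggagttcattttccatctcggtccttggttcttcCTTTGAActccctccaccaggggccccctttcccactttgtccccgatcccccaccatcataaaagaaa
Gm32302: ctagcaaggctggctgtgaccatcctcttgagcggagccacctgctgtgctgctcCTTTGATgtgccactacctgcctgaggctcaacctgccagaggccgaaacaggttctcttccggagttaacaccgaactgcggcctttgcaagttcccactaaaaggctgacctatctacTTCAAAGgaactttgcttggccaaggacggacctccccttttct
Gm45889: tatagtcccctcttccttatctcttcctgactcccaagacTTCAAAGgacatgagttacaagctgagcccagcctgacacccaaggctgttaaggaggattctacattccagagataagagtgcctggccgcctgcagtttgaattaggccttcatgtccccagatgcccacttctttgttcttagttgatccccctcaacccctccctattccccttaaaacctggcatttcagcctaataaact
Abcb1a: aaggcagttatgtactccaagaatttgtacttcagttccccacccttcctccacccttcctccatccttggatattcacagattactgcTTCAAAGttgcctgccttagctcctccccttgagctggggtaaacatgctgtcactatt
A330032P22Rik: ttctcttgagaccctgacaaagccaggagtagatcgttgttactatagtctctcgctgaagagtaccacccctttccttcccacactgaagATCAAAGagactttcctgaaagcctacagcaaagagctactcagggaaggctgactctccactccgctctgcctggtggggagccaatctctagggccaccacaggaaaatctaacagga
Gm39446: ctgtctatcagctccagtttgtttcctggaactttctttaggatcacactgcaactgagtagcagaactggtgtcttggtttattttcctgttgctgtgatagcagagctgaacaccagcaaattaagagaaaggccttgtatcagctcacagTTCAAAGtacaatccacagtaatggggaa
Wnt3a: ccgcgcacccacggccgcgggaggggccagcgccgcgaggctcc
All are from RefSeq on GRCm38.p6, the build of the peak lists (mm10). The Msgn1 stretch is chr12:11209023-11209198 on the minus strand, and its words start 203 and 143 bases before the gene start. Gm32302 is chr1:85914572-85914790 on the plus strand, with words 195 and 75 bases before its start. Gm45889 is chr7:142282964-142283209 (plus), Abcb1a chr5:8566943-8567090 (plus), A330032P22Rik chr10:3717908-3718118 (plus), Gm39446 chr11:110476774-110476955 (minus) and Wnt3a chr11:59290958-59291001 (minus). GC content was 47.7% in the Msgn1 stretch and 86.4% in the 44 bases of Wnt3a.

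The share with a Tcf/Lef word was 4.4% of 159 windows touched by day 2 regions, 10.0% of 10 touched by day 6 regions, 15.4% of 26 touched by day 7 regions, 13.8% of 29 touched by regions of day 7 with Gdf11 and 5.64% of 14282 touched by regions called in both day 3 libraries. The AP-1 word TGANTCA was in 18.9% of the 37 windows against 7.81% of all windows and 27.6% of those touched by regions of day 7 with Gdf11. The T-box word AGGTGTGA was in 2 windows (5.41% against 1.28%). Both are overlapping windows of Egfros that hold the same single copy of the word, and the AP-1 share likewise counts both of them for the same AP-1 words. The Cdx words TTTATNG and TTTACGA were also in 2 windows (5.41% against 11.4%), and the Pou words ATGCAAAT and ATTTGCAT in none (1.74% of all). Median GC content was 51.3% in the 37 windows, 52.7% in all windows and 62.0% in those of regions called in both day 3 libraries. Words for Sox, Zic, Gata, Forkhead, Smad, CTCF and E-box factors were searched as well, and none of the words was tested. In the 37 windows and in all windows their shares were 21.6% and 21.0% (Smad), 16.2% and 16.3% (E-box) and 13.5% and 17.5% (Zic). They were 13.5% and 11.2% (Gata), 5.41% and 3.65% (Forkhead), 2.7% and 3.66% (Sox) and 0.0% and 0.648% (CTCF). These shares describe few windows, some of which overlap one another, and a word is not a shown binding site.

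Most of the regions lay away from genes' ends. Their median width was 194 bases (quartiles 161 to 242), near the 184 bases of all merged regions and the 174 to 195 of the other single-group sets, against 333 bases for regions called in both day 3 libraries. Of the 2307, 1021 (44.3%) lay inside a protein-coding gene span, and 73 (3.16%) lay within 1 kb of either end of one, against 50.9% and 11.5% of all merged regions. In the other single-group sets these shares ran from 45.7% to 52.3% and from 2.77% to 8.04%. The annotation used gives gene spans without exons, so exonic and intronic positions were not told apart. There were 1639 regions (71.0%) within 50 kb of a gene span, assigned to 1427 genes, and 295 (12.8%) lay more than 200 kb from any, against 77.2% and 9.87% of all regions. In the other single-group sets 68.6% to 74.8% lay within 50 kb and 10.6% to 15.4% beyond 200 kb, so such positions were not particular to day 3. The day 3 regions were scattered: 107 (4.64%) had another such region within 10 kb and 293 (12.7%) within 50 kb. At 50 kb they formed 130 pairs and 11 groups of 3, the latter including groups at Dennd2c (chr3:103101841-103116047), Atp2b1 (chr10:98799083-98841860) and Apbb2 (chr5:66552302-66605266).

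As peaks, these regions were modest. The fold enrichment that the authors' peak caller gave them had a median of 4.77 (2.27 to 13.7) in day 3 replicate 1, against 5.4 over all regions with a peak there, and 5.26 (2.53 to 14.1) in replicate 2, against 6.22. The rule turns on the calls. Of 66934 regions called in both day 3 libraries, 3.45% had no other call, 2474 (3.7%) had a call in exactly 1 of the other 8 libraries, and 32314 (48.3%) were called in all 8. Just inside the rule were a region of Cpne3 (chr4:19527777-19528007), with −log10 q of 1.99 and 2.48 in the 2 day 3 libraries, and one inside Arhgef18 (chr8:3417893-3418006), with 3.74 and 1.96. Just outside was a region inside Fign (chr2:63982366-63982525), with −log10 q of 3.33 and 5.16 on day 3 but 2.06 in day 7 replicate 1.

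Accessibility followed the calls in most but not all regions. Values are library-scaled counts (CPM with the TMM factors of edgeR), and total counts ran from 7150334 in day 3 replicate 2 to 12335735 in day 6 replicate 1. The median region had 0.54 and 0.54 CPM in the day 2 libraries, 2.1 and 2.39 on day 3, 0.742 and 0.847 on day 6, 0.558 and 0.608 on day 7, and 0.872 and 0.667 with Gdf11. The 2307 regions together took 0.612% and 0.599% of all counts on day 3 and 0.138% to 0.225% in the other 8 libraries. Of the 2 Gdf11 libraries, replicate 1 had the higher share, 0.225% against 0.175%. The lower day 3 library was above the highest of the other 8 in 2106 regions and not in 201. In bulk cells, fewer cells with an open region and less opening per cell cannot be told apart.

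**Figure D1:**
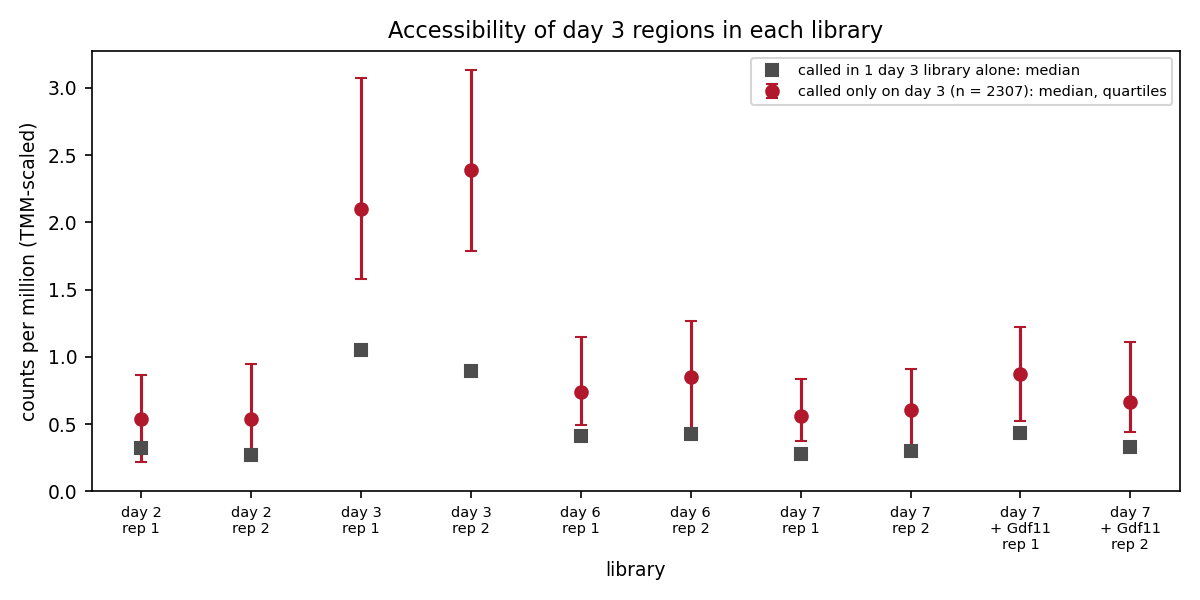
Library-scaled counts (CPM, y axis) in each of the 10 libraries (x axis) for the 2307 regions called only on day 3 (points are medians, bars span the quartiles) and for regions called in 1 day 3 library alone (squares are medians). The medians of the day 3 regions are 2.1 and 2.39 on day 3 and at most 0.872 in the other libraries.

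The differences around day 3 were part of how the regions were chosen and are given as a description. After a filter on low counts 2258 of the 2307 regions remained. Their median log2 change was 2.00 from day 2 to day 3 (−0.13 to 9.57) and −1.60 from day 3 to day 6. With the adjusted-p threshold of 0.05 that edgeR's quasi-likelihood test gives over all regions, 999 were past it as higher on day 3 than day 2 (44.2%, where the share over all tested regions was 8.84%) and 701 as lower on day 6 than day 3 (31.0%, where the share was 6.06%). Both held for 449 regions and neither for 1007.

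The regions near mesoderm genes show the day 3 pattern library by library. Mesp1, a transcription factor of early mesoderm, has a region 2516 bases from its span (chr7:79789332-79789725). It had 0.648 and 0.81 CPM on day 2, 6.14 and 7.01 on day 3, 1.65 and 2.26 on day 6, 1.12 and 1.67 on day 7, and 1.48 and 1.11 with Gdf11. Both day 3 libraries stood well above the other 8, and scaled summed counts were 8.98-fold those of day 2 and 3.45-fold those of day 6. The Msgn1 region (chr12:11209023-11209331), which covers most of the promoter shown above for this basic helix-loop-helix factor of presomitic mesoderm, had 0.756 and 0.54 CPM on day 2 and 3.33 and 3.13 on day 3. The later libraries lay between 0.222 and 1.15 CPM, so the days on either side of day 3 overlapped each other and not day 3. A region inside Tbx6 (chr7:126785298-126785446), a T-box factor of paraxial mesoderm, went from 0.648 and 0.54 CPM on day 2 to 2.1 and 2.54 on day 3 and back to 0.907 and 0.847 on day 6. Hes7, a repressor of the segmentation clock, is different: its region (chr11:69123513-69123662) was already at 4.1 and 4.72 CPM on day 2, reached 7.19 and 7.16 on day 3, and had 5.02 and 6.23 on day 7. There the absence of a peak call on the other days did not mean a closed region.

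Among caudal and Wnt ligand genes, Wnt3a, the Wnt ligand of the streak and tail bud, had 2 regions. The one 3830 bases from its span (chr11:59243823-59244206) had 1.19 and 0.81 CPM on day 2, 9.73 and 9.85 on day 3, and 0.907 and 1.69 on day 6. In the remaining libraries it had 0.651 to 1.44 CPM, so only the 2 day 3 libraries were high, 9.59-fold above day 2. The promoter region of Wnt3a (chr11:59290958-59291143) had 1.3 and 0.945 CPM on day 2 and 2.37 and 2.98 on day 3. Fgf8, a ligand of the caudal epiblast, also had 2 regions. The region 13331 bases from the gene (chr19:45722869-45723160) had no count in either day 2 library and reached 5.09 and 5.97 CPM on day 3. That is at least 30.1-fold higher, with day 2 set to a floor of 3 counts over both libraries. The region 1546 bases from the gene (chr19:45734667-45734945) had 0.216 and 0.27 CPM on day 2, 7.28 and 7.01 on day 3 and 1.57 and 0.989 on day 6. Both were high in the 2 day 3 libraries alone. A region inside Greb1 (chr12:16737884-16738171) had 0.216 and 0 CPM on day 2, 3.16 and 3.58 on day 3 and 1.15 and 2.26 on day 6. Cdx4, a homeobox factor of the caudal embryo, had a weak one (chrX:103305417-103305609), at 0 and 0.27 CPM on day 2 and 1.49 and 2.24 on day 3.

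Genes of the Fgf pathway held 7 regions at 6 genes, ligands and targets alike. The region nearest to Fgf15, an Fgf ligand, lay 10845 bases from it (chr7:144885260-144885687). It had 0 and 1.48 CPM on day 2, 16.4 and 11.5 on day 3, and 0.837 to 2.43 in the 6 later libraries. No other library came near those of day 3, whose scaled counts were 22.1-fold those of day 2 and 11.2-fold those of day 6. Near Fgf3, a ligand gene of the same gene cluster as Fgf15, a region (chr7:144835287-144835545) went from 0 and 0.675 CPM on day 2 to 4.47 and 3.28 on day 3 and 1.4 and 0.989 on day 6. Etv4, an Ets factor downstream of Fgf receptors, had a region (chr11:101801392-101801648) at 0.863 and 0.27 CPM on day 2, 5.79 and 5.52 on day 3 and 0.99 and 0.847 on day 6. The Sprouty inhibitors differed from these in the later days. The Spry2 region (chr14:105900634-105901065) had 0.432 and 1.21 CPM on day 2, 18.9 and 12.7 on day 3, 9.15 and 7.63 on day 6, 5.21 and 5.78 on day 7, and 4.97 and 7.0 with Gdf11. Its later libraries were all above day 2 and below day 3, although no peak was called in them. The Spry1 region (chr3:37667850-37668081) had 1.19 and 0.54 CPM on day 2, 5.0 and 2.98 on day 3 and 2.64 and 3.39 on day 6, so that day 3 and day 6 overlapped.

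**Figure D2:**
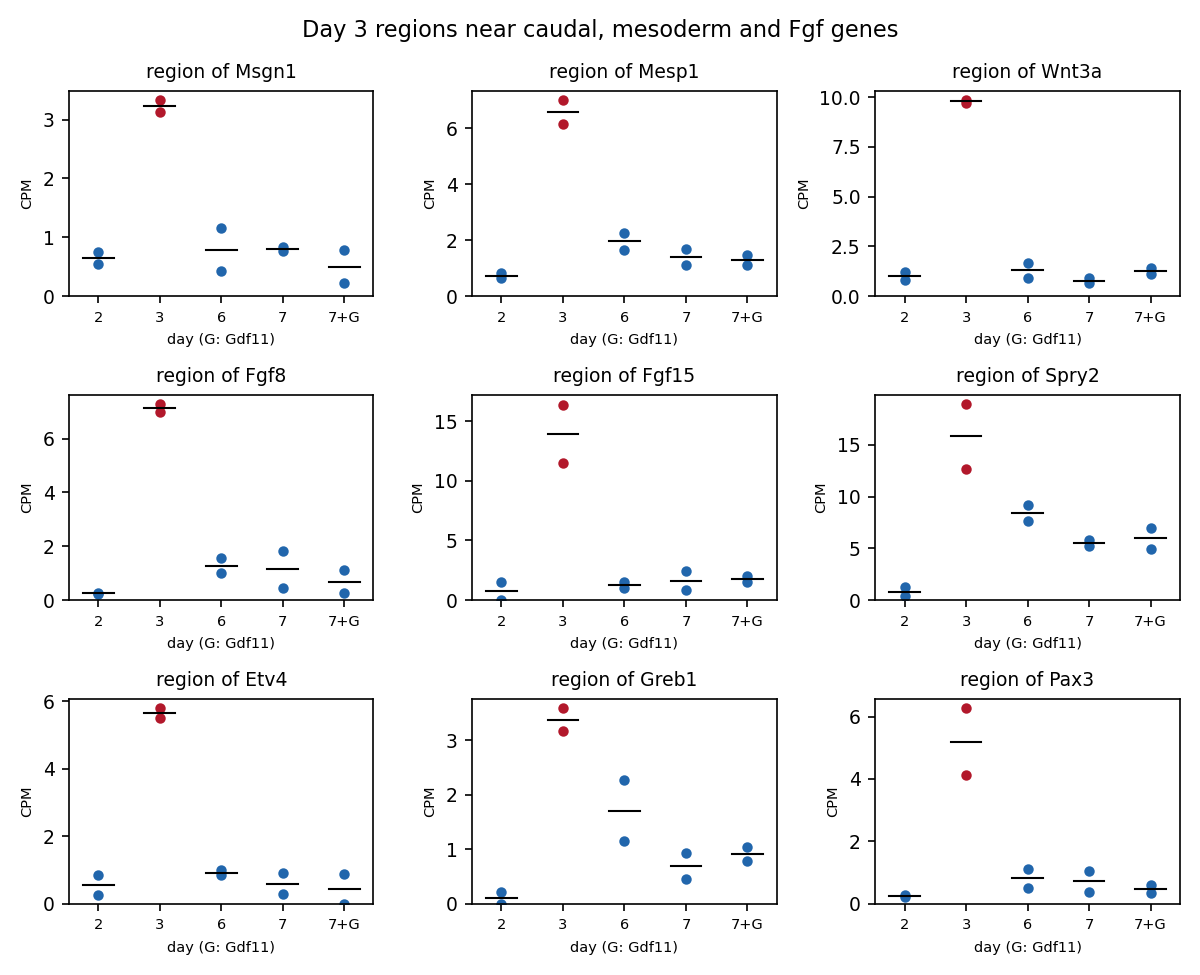
CPM (y axis, linear from 0, scaled per panel) of 9 regions called only on day 3 by day (x axis, 7+G is day 7 with Gdf11). Points are the 2 libraries of a group, red on day 3, and bars are their means. Each day 3 point is above all other points of its panel, and the Spry2 region keeps 9.15 and 7.63 on day 6.

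Neural and pluripotency genes gave mixed patterns. A region 29719 bases from Pax3, a factor of dorsal neural tube and somites, had 0.216 and 0.27 CPM on day 2, 4.12 and 6.27 on day 3 and 0.495 and 1.13 on day 6 (chr1:78071246-78071548). A region 45511 bases from Hes1, a Notch target (chr16:30113307-30113720), had 0.971 and 1.21 CPM on day 2, 4.56 and 4.48 on day 3 and 1.73 and 1.55 on day 6. In both, day 3 stood clear of the other days. The Sox2 region (chr3:34668038-34668222), near a factor of pluripotent and neural cells, had 4.82 and 4.63 CPM on day 3 but 4.93 and 7.76 on day 7, where no peak was called. A region across the start of Nkx6-1, a ventral spinal cord factor (chr5:101664497-101664808), had 5.35 and 7.91 CPM on day 3 and 3.13 to 4.95 in the other 8 libraries. Lin28a, an RNA-binding protein of stem and progenitor cells, had a region (chr4:134016431-134016602) at 1.51 and 2.7 CPM on day 2, 9.73 and 7.01 on day 3 and 3.3 and 1.41 on day 6. At Nkx6-1 the gap between day 3 and the other days was narrow, and at Sox2 day 7 overlapped day 3, so a call on day 3 alone did not always go with the highest level then.

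Other list genes with such a region were few. Of 304 regions assigned to Hox genes, 2 qualified. The one inside Hoxa3 (chr6:52180472-52180633) had 1.08 and 0.675 CPM on day 2 and 3.16 and 4.48 on day 3. The one inside Hoxc6 (chr15:103005916-103006092) had 1.3 and 1.89 on day 2 and 4.12 and 4.77 on day 3. In the retinoic acid pathway the receptor gene Rarg had a region (chr15:102243891-102244065) at 0.54 and 1.75 CPM on day 2 and 6.4 and 6.42 on day 3. Rdh10, a retinol dehydrogenase, had one (chr1:16116205-16116406) at 1.4 and 1.21 on day 2 and 2.19 and 2.83 on day 3. In each of these 4 both day 3 libraries were above all of the other 8. The Wnt5a region (chr14:28502819-28502991) had 0.863 and 0.675 CPM on day 2, and its 2 day 3 libraries lay far apart, at 2.81 and 5.52. Regions were also nearest to Zeb2 and Dbx2, and a second one each to Greb1 and Pax3.

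Relative to how many regions each gene list had, the share of day 3 regions was highest for the caudal list, but not when genes were counted. Day 3 regions made up 0.86% of all regions assigned to a gene. Of 237 regions assigned to caudal epiblast and neuromesodermal progenitor genes, 7 (2.95%) were day 3 regions, at Cdx4, Fgf8, Greb1 and Wnt3a. The shares were 2.26% of 310 for the Fgf pathway, 1.89% of 212 for primitive streak and presomitic mesoderm genes and 1.6% of 374 for neural genes. They were 0.647% of 464 for Wnt pathway and target genes, 0.658% for Hox genes and 0.627% of 319 for pluripotency genes, and none of 369 regions of Nodal, TGF-beta and BMP genes or of 104 of housekeeping genes qualified. Counted by genes, 4 of 18 caudal genes had a day 3 region, against 6 of 18 Fgf pathway genes and 5 of 20 neural genes. It was 3 of 14 for lateral plate, heart and blood markers, 3 of 15 for endoderm and 2 of 10 for neural crest. Over all genes the share was 7.29%, so the caudal list did not stand apart by this count. Fgf8 and Wnt3a are each in a pair of lists, and the lists were not tested as sets.

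Markers of other cell types held such regions too. They were 3 of 148 regions (2.03%) of endoderm markers, at Foxa2, Sox17 and Trf, and 4 of 209 (1.91%) of lateral plate, heart and blood markers, at Isl1, Runx1 and, with 2, Lmo2. Neural crest markers had 2 of 204 (Ngfr, Sox9) and feeder fibroblast markers 1 of 172 (Dcn). The Sox17 region (chr1:4492425-4492637) had 2.16 and 2.83 CPM on day 2 and 2.81 and 4.63 on day 3, and the days overlapped. The Dcn region had 0.648 and 0.27 CPM on day 2 and 5.7 and 6.42 on day 3. That of Ngfr went from 0.648 and 0.405 to 2.54 and 2.69, and that of Sox9 from 0.648 and 0.54 to 2.81 and 2.54. In these last regions both day 3 libraries were above both of day 2. Levels of the Foxa2, Trf, Runx1 and Lmo2 regions are not given here. Summed over the other regions of the whole lists, endoderm markers had 491.4 and 507.9 CPM on day 2 and 455.5 and 519.4 on day 3. Lateral plate markers had 596.9 and 624.1 on day 2 and 582.1 and 630.8 on day 3, and fibroblast markers 305.0 and 332.0 on day 2 and 349.6 and 338.2 on day 3. The fibroblast sum had both day 3 libraries above both of day 2, and so had that of housekeeping genes, at 973.4 and 1036.8 on day 2 and 1061.6 and 1143.3 on day 3. The part of these cell types in the day 3 regions was not tested.

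**Figure D3:**
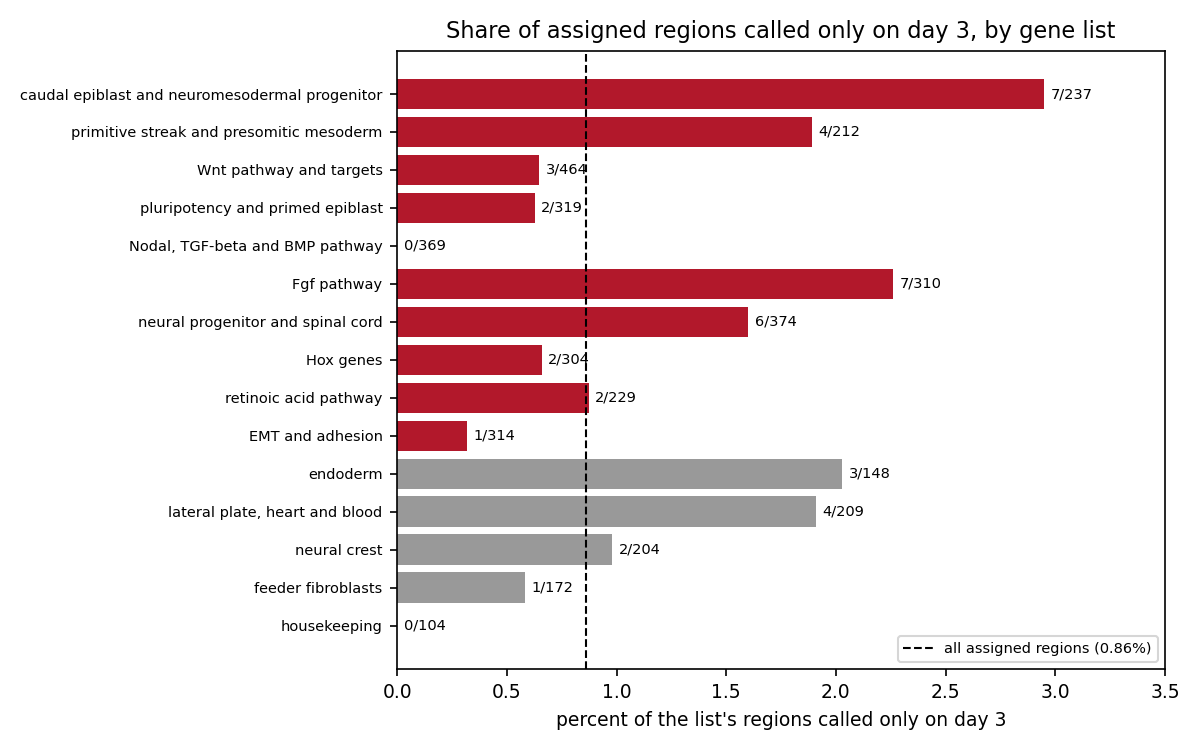
Percent of the regions assigned to each gene list that were called only on day 3 (x axis, bars from 0), for 10 lists of pathways and cell states (red) and 5 of other cell types and housekeeping genes (grey). Numbers at the bars are day 3 regions over all assigned regions, and the dashed line is the 0.86% of all genes. Caudal genes reach 2.95%.

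The regions with the largest day 3 peak enrichment were not near list genes, apart from that of the fibroblast marker Dcn. Ranked by the lower of their 2 enrichments, the first 12 were nearest to Pkhd1, Pcdh20, Amph, Erbb4, Lratd2, Adamts17, Dcn, Arid1b, Hgf, Otc, Adgrb3 and Aff3. Among them, those nearest to Pcdh20, Adgrb3 and Erbb4 lay 1541093, 218661 and 177763 bases away. These and the Lratd2 region were beyond the 50 kb window and not assigned to the genes. The region inside Pkhd1 (chr1:20273730-20274243), a gene of ciliated kidney and liver ducts, had enrichments of 13.7 and 12.9. Its CPM were 1.08 and 1.62 on day 2, 13.6 and 10.6 on day 3, 1.65 and 2.4 on day 6, and 1.06 to 2.18 in the 4 day 7 libraries. The region 38880 bases from Hgf, the ligand of the Met receptor (chr5:16658319-16658775), had 0.216 and 0.54 CPM on day 2, 10.2 and 14.6 on day 3 and 1.98 and 1.84 on day 6. In both, day 3 was the one day that stood apart. The region nearest to Lratd2 lay 235583 bases from it (chr15:60582978-60583413) and had 0.863 and 0.54 CPM on day 2, 13.1 and 13.4 on day 3 and 3.13 and 2.82 on day 6. The region that covers the Gm45889 promoter (chr7:142282842-142283209) had 0.648 and 2.7 CPM on day 2, 16.5 and 14.2 on day 3 and 2.97 and 2.26 on day 6.

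The genes with the most day 3 regions had many regions in all, where the median over all genes was 6. There were 168 genes with 2 or more and 31 with 3 or more. Tenm3, a teneurin that guides axons, had 7 of its 157 regions, and Macrod2 had 5 of 217. Apbb2, Hdac9, Magi2 and Ldlrad4 were among the genes with 4, of 66, 80, 132 and 47 regions. The 7 in Tenm3 had between 1.64 and 4.21 CPM in the day 3 libraries and between 0 and 1.89 in the others. In each of the 7 the lower day 3 library was above the highest of the other 8.

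Between day 2 and day 6 the comparison is again a description. The rule asked for no peak on either day, which caps the levels of both, and it did so unequally: the peak lists covered 111763 and 91110 regions on day 2 against 98801 and 74118 on day 6, and 995 and 332 regions were kept out by a single day 2 library (replicates 1 and 2) against 317 and 106 by a single day 6 library. Of the 2258 regions, 239 were past the edgeR threshold as higher on day 6 (10.6%, where the share over all tested regions was 20.1%) and 14 as lower (0.62%, where it was 12.5%), and nothing is read from these shares. The median log2 change was 0.43, and it was 0.27 in the 4494 regions called in 1 day 3 library alone that passed the filter, of 11857 and 6188 such regions. By mean CPM, 1492 of the 2307 were higher on day 6 than on day 2. The count of 239 became 138 without day 2 replicate 1, 147 and 154 without day 6 replicate 1 or 2, and 139 with DESeq2, and that of 14 became 8 with DESeq2.

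**Figure D4:**
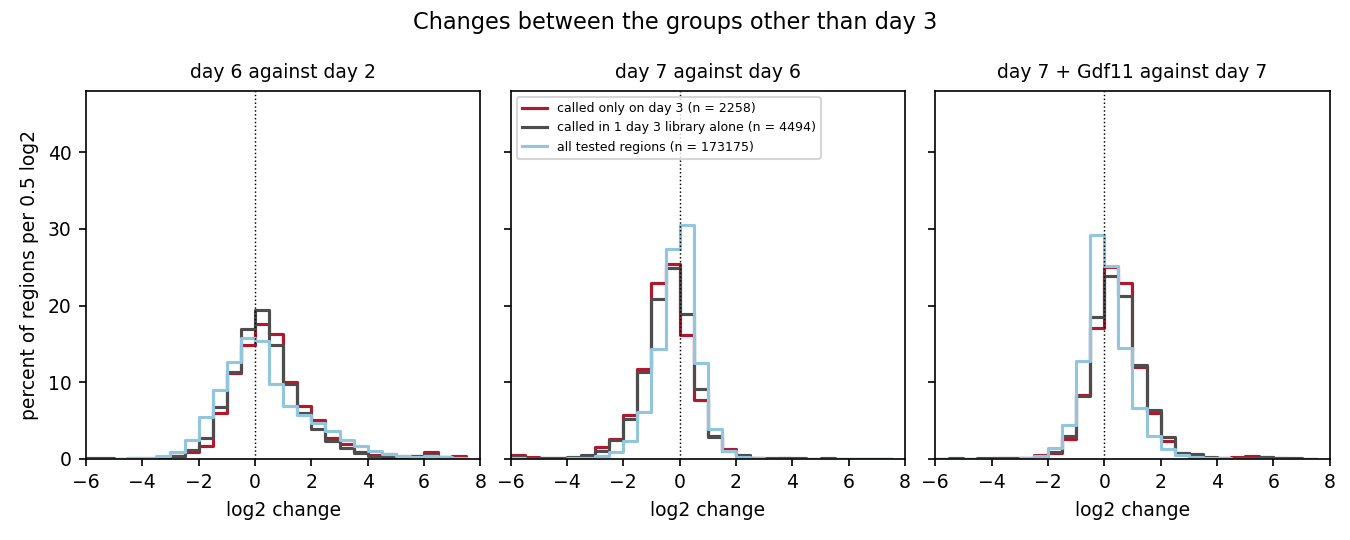
Percent of regions (y axis) per 0.5 of log2 change (x axis) for 3 comparisons between groups other than day 3, in regions called only on day 3 (red), regions called in 1 day 3 library alone (grey), both chosen to have no peak in these groups, and all tested regions (blue). Median changes of the day 3 regions are 0.43, −0.42 and 0.42 from left to right.

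The Spry2 region, shown above, had the smallest p of these, with a log2 change of 3.41 ± 0.41 (SE) from day 2 to day 6. A region 41842 bases from Zfp36l1, a protein that promotes mRNA decay (chr12:80065476-80065918), had 0.216 and 0.54 CPM on day 2, 14.0 and 9.1 on day 3, 4.12 and 3.95 on day 6 and 1.12 and 1.22 on day 7. Day 6 lay between day 3 and the other days. Regions inside Cpa6 (chr1:10594475-10594895) and Syt1 (chr10:108529954-108530271), a synaptic vesicle protein, had no count on day 2 and were at least 10.4-fold and 11.6-fold higher on day 6. Cpa6 had 9.21 and 11.6 CPM on day 3 and 1.81 and 1.98 on day 6.

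Among list genes, the regions past the edgeR threshold as higher on day 6 were those of Spry2, Spry1 and Rarg, both of Fgf8, and the one inside Greb1. Other list regions, such as those of Mesp1 and Pax3 shown above, had both day 6 libraries above both of day 2 without passing it. The Rarg region was at 2.23 and 3.81 CPM on day 6, above the 0.54 and 1.75 of day 2. The opposite order was seen near Isl1, a factor of heart and limb precursors (chr13:116314499-116314693), with 2.81 and 2.83 CPM on day 2, 6.58 and 4.03 on day 3 and 0.742 and 1.41 on day 6. It was also seen near Mtres1 (chr10:43549352-43549559), with 2.37 and 2.97 CPM on day 2, 4.65 and 2.69 on day 3 and 0.495 and 0.424 on day 6. At Mtres1 day 3 replicate 2 lay within the range of day 2, and the 2 days overlapped.

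The same limit holds for day 7 against day 6, since neither day could have a peak. By edgeR, 0 regions were past the threshold as higher (where the share over all regions was 0.975%, with 17 at an unadjusted p under 0.05) and 4 as lower (0.177%, where it was 0.206%, with 158 at an unadjusted p under 0.05). DESeq2 called 0 in either direction, but its filter left 2227 of the 2258 without an adjusted p. Low counts in both groups were part of the choice, and nothing is read from these shares. The median log2 change was −0.42, and −0.34 in regions called in 1 day 3 library alone. The 4 were nearest to Zfp36l1, Lratd2, Gata6 and Prokr2, the last 2 with no count on day 7. Those nearest to Lratd2 and Gata6 lay beyond the 50 kb window and were not assigned to these genes. Lratd2 had 1.02 and 0.608 CPM on day 7, below its 3.13 and 2.82 of day 6. Leaving out either day 2 library gave 13 in place of 4, and leaving out either Gdf11 library gave 8. Leaving out a day 6 library gave 2 (replicate 1) or 0 (replicate 2), and leaving out a day 7 library 1 (replicate 1) or 2 (replicate 2).

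With Gdf11 against untreated day 7, 11 regions were past the edgeR threshold as higher (0.487%, where the share over all regions was 1.09%) and 1 as lower (0.0443%, where it was 2.65%). Neither group could have a peak here either, and nothing is read from these shares. The median log2 change was 0.42, and 0.39 in regions called in 1 day 3 library alone. The 4 with the smallest p among the 11 were weak regions without a count on day 7, near Nxph1 (at least 9.03-fold higher), Crim1 (at least 6.77-fold), Hmcn2 (at least 5.08-fold) and Tmem200c (at least 4.52-fold). The Nxph1 region (chr6:10469069-10469295) had 1.74 and 1.33 CPM with Gdf11 and 1.93 and 2.69 on day 3. The lower one was inside Trim24 (chr6:37925212-37925449), with 1.02 and 1.06 CPM on day 7 and 0.174 and 0 with Gdf11. DESeq2 called 0 in either direction but left 2043 of the 2258 without an adjusted p, Trim24 among them, and the call at Trim24 was lost without any 1 of the 4 libraries compared. The 11 became 2 without replicate 1 of either group, 6 with day 7 replicate 2 left out and 17 with day 2 replicate 2 left out.

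The other regions of the genes that hold a day 3 region give a view that did not enter the choice. Counts were summed per gene over its assigned regions without the day 3 regions. Of 1411 such genes tested, 277 rose from day 2 to day 3 (19.6%, against 11.9% of all 19026 genes) and 152 fell (10.8%, against 10.6%) by edgeR. From day 3 to day 6, 261 rose (18.5%, against 9.64%) and 160 fell (11.3%, against 10.4%). These genes had a median of 18 regions against 6 over all genes and were more accessible, with a median log2 CPM of 5.87 against 4.88, and the part of that in the shares was not tested. The 277 became 163 with day 2 replicate 2 left out, 176 with day 3 replicate 2 left out and 176 with DESeq2. The 261 became 151 without day 6 replicate 1, and the 160 became 84 and 106 without day 6 replicate 1 or 2 and 102 when genes were assigned within 10 kb.

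Of the 4 caudal genes with a day 3 region, Fgf8 (log2 change 1.07 ± 0.17, edgeR adjusted p = 1.86e-05), Cdx4 (1.06 ± 0.15, edgeR adjusted p = 3.51e-06) and Greb1 (0.91 ± 0.11, edgeR adjusted p = 3.92e-08) rose from day 2 to day 3. Over the whole caudal list 14 of 18 genes rose and 0 fell, with a median of 0.94, beside −0.01 over all genes. Of all genes 11.9% rose and 10.6% fell, and the list was chosen with earlier results of these data known. Wnt3a did not pass (−0.16 ± 0.15, edgeR adjusted p = 0.467). The sum of its other regions thus did not follow its 2 day 3 regions past the threshold. Hoxa3 (1.2 ± 0.11, edgeR adjusted p = 2.06e-10) and Hoxc6 (0.88 ± 0.13, edgeR adjusted p = 4.52e-06) rose, as did Pax3, Hes1 and Wnt5a by 0.56, 0.41 and 0.61. From day 3 to day 6 Fgf8 and Cdx4 fell by 0.47 and 0.57, calls that were lost without day 3 replicate 1 or day 6 replicate 2, and for Fgf8 also without day 6 replicate 1 and with DESeq2. Over the whole caudal list 2 of 18 genes rose and 10 fell from day 3 to day 6, with a median of −0.36. Of all genes 9.64% rose and 10.4% fell in that step. Foxa2 rose by 0.34 to day 3 and fell by 0.31 to day 6, and DESeq2 called neither.

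None of the mesoderm genes with a day 3 region passed the test from day 2 to day 3. Mesp1's other regions changed by −0.17 ± 0.25 from day 2 to day 3 (edgeR adjusted p = 0.67) and Msgn1's by −0.26 ± 0.21 (edgeR adjusted p = 0.392), and Hes7 was at 0.18 ± 0.11 (edgeR adjusted p = 0.211). From day 3 to day 6 Msgn1 rose by 0.59 ± 0.20 (edgeR adjusted p = 0.0325) and Hes7 fell by 0.49 ± 0.11 (edgeR adjusted p = 0.000951). The Msgn1 call was lost with DESeq2, with the 10 kb window and with day 3 replicate 1 or either day 6 library left out, and the Hes7 call with day 6 replicate 1 left out. The intragenic region is the single one assigned to Tbx6. In the whole streak and presomitic list 2 of 19 genes rose from day 2 to day 3 and 3 fell, against 11.9% and 10.6% of all genes. From day 3 to day 6, 1 rose and 3 fell, against 9.64% and 10.4%. In the Fgf pathway the directions were split: Spry1 rose by 0.72 ± 0.11 to day 3 and by another 0.76 ± 0.10 to day 6 (edgeR adjusted p = 7.92e-06 and 7.41e-07), calls that were lost when regions were assigned within 10 kb. Fgf15 fell by 0.59 ± 0.14 to day 3 (edgeR adjusted p = 0.00191), opposite to its day 3 region, and Etv4, Fgf3 and Spry2 did not pass. Lin28a and Rarg fell from day 3 to day 6 by 0.61 and 0.64, and Pax3 rose again by 0.41. Tenm3, the gene with the most day 3 regions, rose from day 2 to day 3 by 0.57 ± 0.07 in its other regions (edgeR adjusted p = 2.62e-07).

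**Figure D5:**
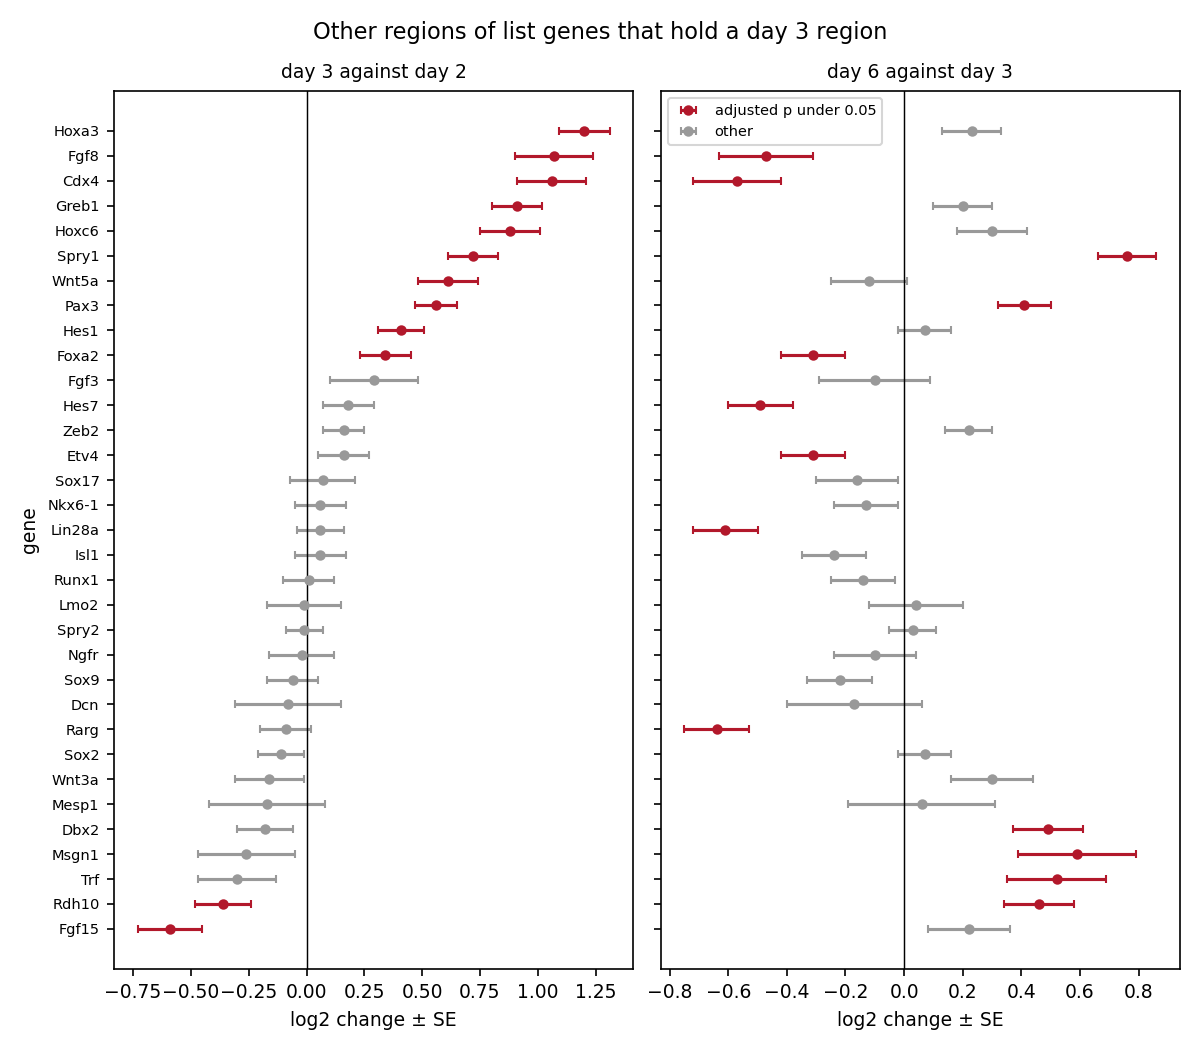
Log2 change with its SE (x axis) of summed counts over the assigned regions of each list gene (y axis) that holds a day 3 region, leaving the day 3 regions out, for day 3 against day 2 and day 6 against day 3. Red points had an edgeR adjusted p under 0.05. Fgf8 and Cdx4 rise and then fall, and Pax3 rises in both steps.

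Regions that lay within 10 kb of a day 3 region without being one were called at shares near those of all regions. Of 4537 tested, 499 rose from day 2 to day 3 (11%, against 8.84% of all regions) and 190 fell (4.19%, against 4.34%) by edgeR. From day 3 to day 6, 393 rose (8.66%, against 9.17%) and 335 fell (7.38%, against 6.06%). Their median log2 changes were 0.13 and −0.02, against 2.00 and −1.60 for the day 3 regions themselves. With DESeq2 the 499 became 297, the 190 became 124 and the 335 became 196. Leaving out day 2 replicate 1 gave 324 and 103 for the first pair. Leaving out day 3 replicate 1 gave 306 in place of 499 and 187 in place of 335, and leaving out day 3 replicate 2 gave 108 in place of 190 and 260 in place of 393. Leaving out day 6 replicate 1 gave 239 and 178 for the second pair, and leaving out day 6 replicate 2 gave 209 in place of 335.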

How the data were processed

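ATAC-seq was measured in 10 libraries of 5 groups. The count files deposited by the authors hold whole-number counts per region, without positions, and the counter is not given in the sources used here. The deposited peak lists, called per library by the authors, give each peak's ratio (fold enrichment) and the −log10 of its q. Per the submitters' processing notes the tools were MACS2 2.1.1.20160309, HISAT2 2.1.0, HOMER 4.10, bedtools and SAMtools, on mm10.

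Merging the lists (peaks that overlapped or touched end to end) in character order of chromosomes gave as many regions as were counted. There were 0 counts of 0 where a library had its own peak, and positions rest on this match. Mitochondrial regions took 9.25% to 13.4% of counts. Regions went to the nearest of 21883 protein-coding spans within 50 kb (bedtools 2.31.1), ties to the shorter span. Counts were tested with edgeR 4.0.16 (R 4.3.3): filterByExpr (173175 regions left), TMM, 1 quasi-likelihood fit of all libraries by group, two-sided, Benjamini-Hochberg adjustment over all regions or genes, threshold 0.05. Standard errors come from the F statistic, and folds of levels from summed scaled counts. A group with no count was set to 3 counts, which covers counting error only. The planned tests of the regions between days 2, 6 and 7 and with Gdf11 are given as descriptions, since the rule capped both groups. The code was tested on simulated data. Alternatives were RLE factors, library size only, no filter, DESeq2 1.42.0, a replicate block, other windows and leaving out each library. The words of the factors were matched as letters on both strands, N standing for any base, in the promoter windows alone. Motif tables from other sources were not used here.

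The regions and the 15 gene lists were chosen with earlier results of these data known. Named were the 12 regions with the largest lower day 3 enrichment, up to 8 genes with the most regions (not all are reported here), up to 4 regions per list by day 3 CPM, up to 4 per direction and comparison by p, up to 4 genes per list and direction by their other regions, and 3 regions on either side of the rule. Regions at promoters, the second regions of list genes and other list genes were added after their values were seen.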

Additional observations from a re-analysis of the deposited data

How the results depend on the processing

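The number of regions called only on day 3 was 2846 when a peak had to cover at least 50% of a region, 2277 with −log10 q of at least 3 in all libraries and 2133 with it on day 3 alone. It ran from 2380 to 14164 when 1 peak list was left out, with 8495 without day 3 replicate 1 and 14164 without replicate 2, so it rests on both day 3 lists. With DESeq2 the counts were 139 higher and 8 lower for day 6 against day 2, 0 lower for day 7 against day 6, and 0 higher and 0 lower for Gdf11; for the last 2 comparisons it gave no adjusted p in 2227 and 2043 of the 2258 regions. For the other regions of genes DESeq2 gave 176 higher on day 3. For neighbours it gave 297 higher and 124 lower on day 3, and 196 lower on day 6. Without a filter 7 regions were lower on day 7 than on day 6, and with library size only 0 were lower with Gdf11. Assigning within 10 kb left 102 genes lower on day 6. Neighbours within 50 kb, 19056 in place of 4537, gave 1822 higher (9.56%) and 835 lower (4.38%) on day 3 and 1778 higher (9.33%) and 1219 lower (6.4%) on day 6. Leaving out 1 library gave 138 to 248 higher and 10 to 20 lower for day 6 against day 2, 0 to 0 higher and 0 to 13 lower for day 7 against day 6, and 2 to 17 higher and 0 to 2 lower for Gdf11. For genes it gave 163 to 324 higher and 115 to 164 lower on day 3, and 151 to 277 higher and 84 to 186 lower on day 6. For neighbours it gave 306 to 543 higher and 103 to 207 lower on day 3, and 239 to 421 higher and 178 to 371 lower on day 6. The cause of these shifts was not tested, beyond the smaller number of libraries. With 1 library left out, the lone library of that group is assumed to vary like the other groups. Each of the 10 libraries was left out in turn, although a call compares only 2 groups of 2 libraries. Most of the cases counted next thus left both compared groups whole and could hardly change a call. The number of calls kept is therefore not a measure of how stable they were. Calls of single named regions and genes kept their side of the threshold in 494 of the cases with 1 library left out and lost it in 96, and in 294 and 24 under other settings, where 8 had no DESeq2 adjusted p and are not counted. No direction reversed.

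The labels give replicate numbers but no pairing, and the correlation of same-numbered libraries' deviations ran from 0.00195 to 0.0494. With a replicate block day 6 against day 2 gave 234 higher and 14 lower, day 7 against day 6 gave 0 and 4, and Gdf11 gave 11 and 1. Genes gave 333 and 182 on day 3 and 309 and 207 on day 6. Low counts limit single regions: the median was 4 to 10 counts in the libraries outside day 3.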
